A study of Mus musculus with 6 samples.

Results

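The 10 genes examined mark GABAergic neurons, the inhibitory neurons of the brain, and were searched for binding sites of ERα, the estrogen receptor encoded by Esr1. They are the 7 homeobox transcription factor genes Dlx1, Dlx2, Dlx5, Dlx6, Lhx6, Six3 and Meis2 and the 3 transmitter genes Gad1, Gad2 and Slc32a1, out of 21887 protein-coding genes. A peak was assigned to a gene when it overlapped the gene's RefSeq span, which is called inside the span here. Otherwise it had to lie within 250 kb of the span with that gene as the nearest protein-coding gene. This gave 80 of 82442 peaks, which fell into 34 of 39374 merged regions, and 9 of the 10 genes held at least 1 peak. The peaks come from CUT&RUN, in which an antibody tethers a nuclease to the bound protein in nuclei so that short fragments around it are set free for sequencing. Limbic tissue was taken from C57/BL6 male mice, gonadectomized at 10 to 12 weeks of age to clear circulating hormone. At 3 weeks after surgery 3 libraries' animals received 5 µg estradiol benzoate under the skin and those of the other 3 corn oil vehicle, and nuclei were taken 4 h later. Whether each library had its own animals is not in the labels, so a p-value here sets groups against a spread of libraries that can be purely technical. Whole tissue nuclei were used, so a difference in the share of GABAergic nuclei and a difference in binding per nucleus cannot be told apart. Peak lists hold no expression, so the tissue label could not be checked against marker genes.

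The Dlx genes encode homeodomain proteins that drive the formation of forebrain GABAergic neurons, and they lie in the genome as the neighbouring pairs Dlx1 with Dlx2 and Dlx5 with Dlx6. Lhx6 acts in interneurons of the medial ganglionic eminence, while Six3 and Meis2 act in forebrain patterning and in striatal neurons. Gad1 and Gad2 encode the glutamate decarboxylases that make GABA, and Slc32a1 encodes the transporter that loads it into synaptic vesicles. ERα is a hormone-activated transcription factor that binds the estrogen response element, a palindrome of inverted repeats, or reaches DNA through other factors.

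A RefSeq promoter window was found for 8 of the 10 genes (250 bases before and 50 after the start site, GRCm38.p6, the coordinates of mm10), 10 windows in all; Dlx5 and Dlx6 were not among them. The windows of Six3, Dlx2 and Slc32a1 overlapped a peak, 3 of 10, beside 24.5% of all 32851 RefSeq windows with a peak in any library and 6.79% with one in all 6. Their 250 bases before the start site are shown because these are the promoter windows, among the 8 genes that have one, that ERα peaks met. Peaks at the promoters of Dlx5 and Dlx6 could not be looked for in this way. Capitals mark bases inside a merged peak region.
Six3, chr17:85620584-85620833, plus strand: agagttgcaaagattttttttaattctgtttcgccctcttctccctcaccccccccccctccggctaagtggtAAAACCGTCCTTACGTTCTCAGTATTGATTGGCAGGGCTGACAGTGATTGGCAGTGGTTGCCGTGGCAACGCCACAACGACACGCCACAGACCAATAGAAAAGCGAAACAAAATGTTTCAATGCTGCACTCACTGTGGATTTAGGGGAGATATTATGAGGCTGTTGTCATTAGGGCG
Dlx2, chr2:71546755-71547004, minus strand: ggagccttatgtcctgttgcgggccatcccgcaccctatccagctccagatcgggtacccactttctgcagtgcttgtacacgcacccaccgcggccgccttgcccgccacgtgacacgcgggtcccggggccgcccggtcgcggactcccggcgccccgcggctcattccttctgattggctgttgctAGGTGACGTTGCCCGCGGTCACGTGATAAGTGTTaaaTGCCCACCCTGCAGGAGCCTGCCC
Slc32a1, chr2:158610508-158610757, plus strand: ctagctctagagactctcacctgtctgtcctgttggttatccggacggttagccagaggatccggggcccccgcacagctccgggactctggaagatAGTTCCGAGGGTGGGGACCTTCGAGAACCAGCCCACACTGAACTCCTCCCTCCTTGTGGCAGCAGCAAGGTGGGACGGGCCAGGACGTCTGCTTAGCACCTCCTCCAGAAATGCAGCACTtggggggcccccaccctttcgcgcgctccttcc
The Six3 stretch had the most covered bases, 177 of 250, and its window held a peak in all 6 libraries. The Slc32a1 stretch had 120 covered bases, with a peak in vehicle replicates 2 and 3 and estradiol replicate 1. The Dlx2 stretch had 58 covered bases in 2 short regions, with a peak in vehicle replicate 3 and estradiol replicates 2 and 3. Estradiol and vehicle libraries were therefore mixed at each of the 3 promoters.

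The letters of the estrogen response element, GGTCA followed after any 3 bases by TGACC (the same on both strands), were in 0 of the 10 windows, beside 0.0700% of all 32851 RefSeq promoter windows. Either arm of it alone, TGACC or GGTCA, was in 4 of the 10 windows, beside 40.5% of all windows. It was in the windows of Dlx1, Dlx2, Gad2 and Lhx6. The Dlx2 copy, 45 bases before the start site, was the only one of these that lay inside a peak region, and it is within the first run of capitals. The Six3 stretch held 3 copies of CCAAT or its reverse ATTGG, a common promoter element, and all 3 were in capitals; this pentamer was searched after the sequence was seen. At least 3 copies were found in 3.37% of all windows and in 21.8% of the 2232 windows with a peak in all 6 libraries. A match in these letters is a description of the sequence and not a measured binding site. GC content was 50.0% in the Six3 window, 63.3% in that of Slc32a1 and 66.3% in that of Dlx2, and its median was 61.3% over windows with a peak in any library and 50.0% over windows with none.

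The peak lists of the 6 libraries were of unequal length, which bears on every count that follows. Vehicle replicates 1, 2 and 3 held 5421, 13717 and 20541 peaks and estradiol replicates 1, 2 and 3 held 11082, 14123 and 17558. A median of 6 fragments stood at a peak's summit in each library and the smallest number was 4, so a missing peak does not show that binding was absent. No peak of any library was identical in position and fold to one of another.

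Over the 10 genes, the vehicle libraries held 4, 13 and 18 peaks and the estradiol libraries 11, 14 and 20. The groups overlapped, and the means of 11.7 ± 7.09 (SD, n = 3) and 15.0 ± 4.58 (SD, n = 3) differed by 3.33 peaks (two-sided exact permutation p = 0.6; the smallest that 3 against 3 libraries allow is 0.1). The lowest count came from vehicle replicate 1, whose list is the shortest, and without that library the difference turned to -0.500. As a share of each library's list, the 10 genes took 0.0738%, 0.0948% and 0.0876% of vehicle peaks and 0.0993%, 0.0991% and 0.114% of estradiol peaks. The exact 95% binomial intervals of these shares, which cover counting error only, ran from 0.0201 to 0.189% for the lowest and from 0.0696 to 0.176% for the highest, and overlapped. All 3 estradiol shares were above all 3 vehicle shares, with means of 0.104% ± 0.00850 and 0.0854% ± 0.0107 (SD, n = 3 each; exact permutation p = 0.1, adjusted p = 0.2 over 6 gene lists). The share was higher by 0.0149 percentage points within replicates 1 and 2 and by 0.0263 in replicate 3, which has 1 library per group. The titles of the libraries name no batch. With 100 kb in place of 250 kb the difference fell to 0.00528 points (exact permutation p = 0.6), and with peaks inside gene spans alone it turned to -0.00607 (p = 0.4).

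Split by place and by role, the counts differed in direction. The exact permutation test of 3 libraries against 3 cannot go below 0.1, so it could not settle any split. Outside the gene spans the vehicle libraries held 2, 7 and 10 peaks and the estradiol libraries 7, 8 and 16 (difference 4.00, exact permutation p = 0.5). Inside them the counts were 2, 6 and 8 against 4, 6 and 4. The 7 transcription factor genes held 3, 8 and 12 peaks in the vehicle and 9, 12 and 18 in the estradiol libraries, or 0.0553%, 0.0583% and 0.0584% against 0.0812%, 0.0850% and 0.103% of the lists. These shares did not overlap between the groups (difference 0.0322 percentage points, exact permutation p = 0.1, adjusted p = 0.2). The 3 transmitter genes held 1, 5 and 6 peaks under vehicle and 2, 2 and 2 after estradiol. Their shares of 0.0184%, 0.0365% and 0.0292% were above the estradiol shares of 0.0180%, 0.0142% and 0.0114%, though vehicle replicate 1 and estradiol replicate 1 nearly met (difference of means -0.0135, exact permutation p = 0.1, adjusted p = 0.2). By gene, the mean count was higher after estradiol for 5 of the 7 transcription factor genes and lower for 0 of them, and lower for all 3 transmitter genes. This tally changed with the settings. The difference was -0.667 at Dlx2 and -0.167 at Dlx5 without vehicle replicate 1, and -0.167 at Dlx2 and 0 at Dlx5 without estradiol replicate 3. At Meis2 it was -0.333 within 100 kb and -0.667 with gene spans alone, where Dlx5 had -0.333 and Dlx6 and Gad2 had 0. At Gad1 it was 0.333 both for −log10 q values of at least 5 and for equal list lengths, and the latter gave 0 at Slc32a1. Without estradiol replicate 1 it was 0 at Gad2. With replicates 1 and 2 only it was 0 at Slc32a1. In replicate 3 alone, with 1 library per group, it was -3 at Slc32a1 and 0 at Dlx2, Dlx5 and Gad2. Over all 13599 genes with a peak the mean count was higher for 39.9% and lower for 33.7%, with a median difference of 0.

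**Figure D1:**
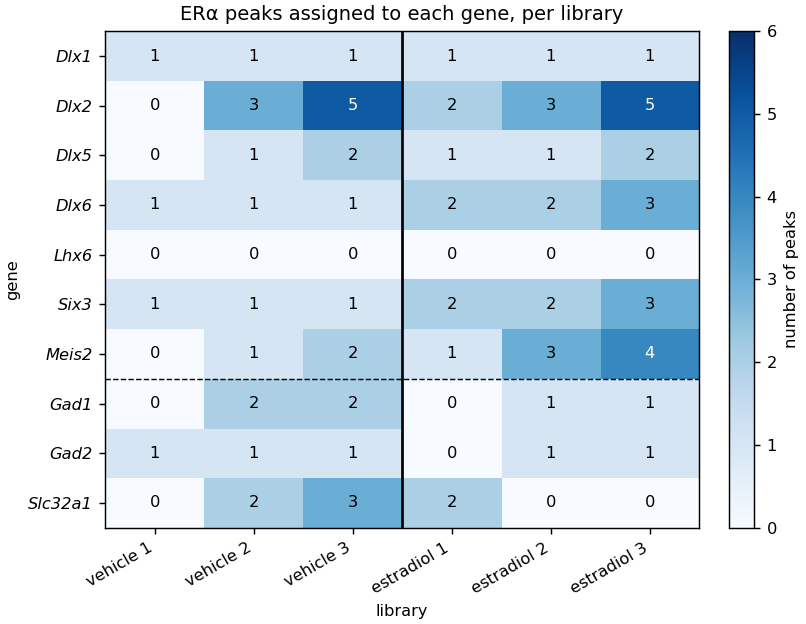
Number of ERα peaks (cell text and shade) assigned to each gene (rows) in each library (columns); the vertical line parts vehicle from estradiol and the dashed line parts transcription factor from transmitter genes. Dlx6 and Six3 have 1 peak in every vehicle library and 2, 2 and 3 in the estradiol libraries, and Lhx6 has 0 throughout.

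Dlx6 and Six3 were the 2 genes whose peak number was higher in every estradiol than in every vehicle library, with 2, 2 and 3 peaks against 1, 1 and 1 for each. Of all 13599 genes with a peak, 0.985% did the same, and 0.316% did the reverse, which none of the 9 did. No test was run on single genes: their counts are small, and an exact permutation test with 3 libraries against 3 cannot go below 0.1. When regions were counted in place of peaks, a setting added after seeing the data, Six3 had 1, 2 and 3 regions after estradiol and its groups overlapped, leaving Dlx6 alone (0.949% of all genes by region). At a −log10 q of at least 5, and with all lists cut to 5421 peaks, the same count was 1 as well, and the gene was then Meis2 in both settings.

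At Dlx6 (chromosome 6, 6863334 to 6867970), the peaks fell into 5 regions. The region shared by the groups lay 372 bp beyond the lower end of the gene (6862875 to 6862962), inside the long non-coding RNA gene Dlx6os1. Peaks of vehicle replicates 1 and 3 there reached −log10 q values of 3.16 and 8.90, and those of the estradiol libraries 8.04, 4.82 and 7.37, on 6 to 12 fragments. Vehicle replicate 2 lacked it and had its Dlx6 peak 84.1 kb away instead (−log10 q 2.99, 4 fragments). The other 3 regions were seen in estradiol libraries only: one at 64.1 kb (6799183 to 6799227) in replicates 2 and 3, with −log10 q of 2.73 and 4.48, and single-library peaks 1.85 and 2.58 kb beyond the upper end, toward Dlx5. Those 2 peaks, in estradiol replicates 3 and 1, also lay in Dlx6os1 and stood on 9 and 8 fragments. The peaks beyond the shared region were thus at 64.1 kb in estradiol replicates 2 and 3, and toward Dlx5 in replicates 1 and 3.

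At Six3 (chromosome 17, 85613608 to 85626191), the promoter region shown above (85620657 to 85620903) was held by every library. Vehicle replicates 1, 2 and 3 reached −log10 q values of 7.27, 9.08 and 8.76 on 10, 12 and 14 fragments, and estradiol replicates 1, 2 and 3 reached 6.81, 8.04 and 10.0 on 10, 10 and 15. The groups overlapped. Estradiol replicate 1 had a second peak in the same region (−log10 q 5.58, 9 fragments), which is the extra peak in its count. A region 192 bp past the start site (85621008 to 85621044) had peaks of estradiol replicates 2 and 3 alone, which stood on 7 and 8 fragments (−log10 q 4.22 and 2.72). A further peak of estradiol replicate 3 (−log10 q 5.26) lay 6.82 kb before the start site, in the overlapping long non-coding gene Six3os1.

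Meis2 held the single region of the 10 genes that was found in 3 of 3 estradiol and 0 of 3 vehicle libraries, beside 0.737% of all merged regions, and 0 regions of the 10 genes had the reverse pattern, beside 0.112%. Meis2 encodes a TALE homeodomain protein that binds DNA together with other homeodomain factors. The region (chromosome 2, 116307540 to 116307672) lay 240.0 kb beyond the upper end of the gene (115861264 to 116067537) and 243 kb before its start site, since Meis2 is read from the minus strand. Estradiol replicates 1, 2 and 3 reached −log10 q values of 9.31, 12.9 and 18.3 there, with fold enrichments of 8.36, 10.1 and 12.7 on 9, 11 and 15 fragments. These peaks ranked at the 84.2, 88.9 and 94.2 percentile of their lists. By the median −log10 q of its peaks the region was number 27 of the 290 regions with this pattern, whose median was 5.21. The next nearest protein-coding gene, BC052040, was 529 kb away, and a gene of another kind, LOC115489615, lay nearer than Meis2, at 140.2 kb. It is the member region nearest to the 250 kb limit, the next being 115 kb from its gene, and 0 peaks beyond the limit had one of the 10 genes as nearest. With 100 kb as the limit no estradiol-only region remained, and the same was true when a peak had to cover 50% of its region.

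The other Meis2 peaks were lower than those of the region at 240.0 kb. The highest of them, in vehicle replicate 2, had a −log10 q of 4.58 on 7 fragments and ranked at the 51.7 percentile of its list. Over all regions Meis2 had 0, 1 and 2 peaks under vehicle and 1, 3 and 4 after estradiol, and the groups overlapped. All 3 vehicle peaks lay inside the gene span, 2 of them about 1.09 and 1.35 kb before the start site, where no estradiol library had a peak. Of the 8 estradiol peaks 1 lay inside the span and 7 outside. Of those 7, 3 clustered 115 kb beyond the gene (116182052 to 116182432) without touching, 2 in estradiol replicate 3 and 1 in estradiol replicate 2, on 5 to 6 fragments.

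**Figure D2:**
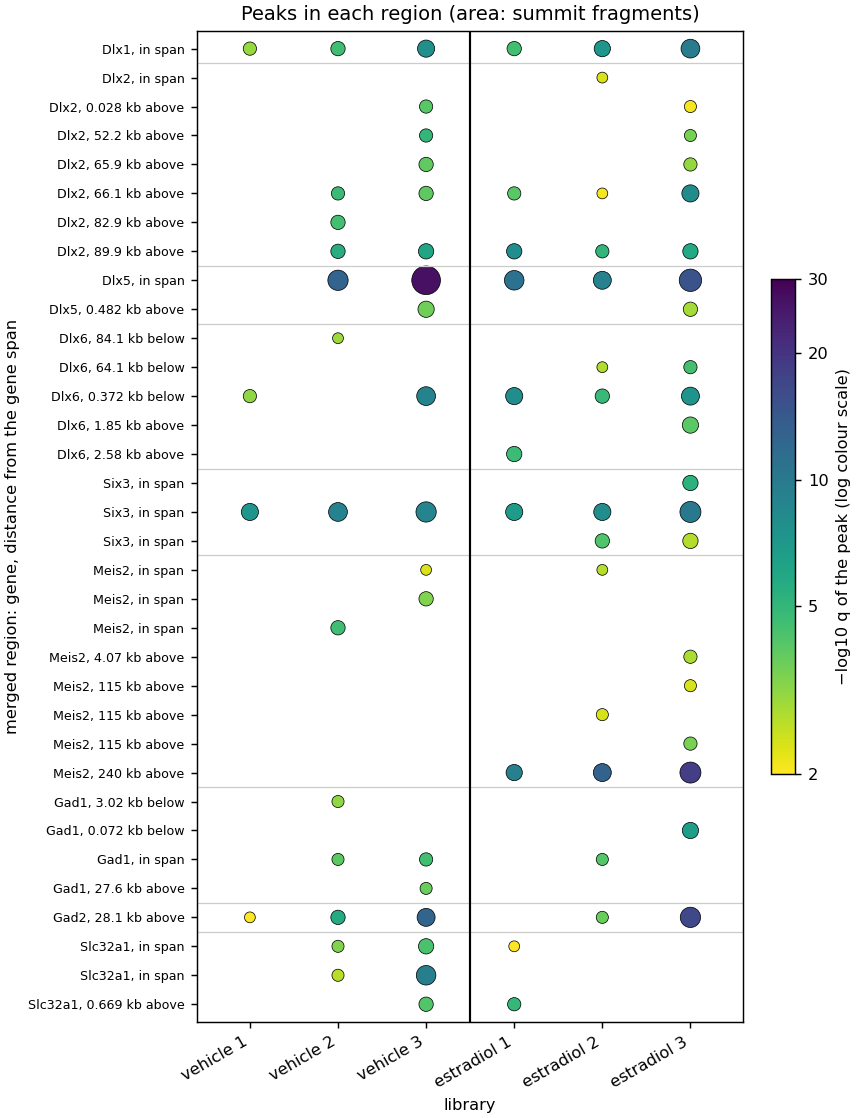
Each row is a merged region, named by its gene and the distance from the gene span, and each column a library; circle area gives the fragments at the summit and colour the −log10 q of the highest peak there. The Meis2 region at 240.0 kb is filled in the 3 estradiol columns alone, and the Dlx1 and Six3 promoter-side regions in all 6.

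Regions seen in at least 5 libraries made up 7 of the 34, beside 13.0% of all merged regions, and 2 of these were in all 6 (7.27% of all). Of the 7, 6 belonged to the transcription factor genes: 1 each at Dlx1, Dlx5, Dlx6 and Six3 and 2 at Dlx2. At Dlx1 and Six3, where all 6 libraries had a peak, the −log10 q values of the groups overlapped.

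Dlx5 had the highest peak of the 10 genes in vehicle replicates 2 and 3 and estradiol replicate 1. The region at the upper end of that gene (chromosome 6, 6882064 to 6882225; gene 6877801 to 6882068) reached −log10 q values of 12.7 and 26.8 for vehicle replicates 2 and 3, on 14 and 28 fragments. Estradiol replicates 1, 2 and 3 reached 10.9, 9.15 and 15.0 on 13, 11 and 17 fragments, and vehicle replicate 1 had no peak. The highest value at Dlx5 was thus a vehicle one, and in estradiol replicates 2 and 3 the Meis2 region at 240.0 kb was higher. A neighbouring region 482 bp beyond the gene end held peaks in vehicle replicate 3 and estradiol replicate 3 with 9 and 7 fragments.

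Dlx1 (chromosome 2, 71528113 to 71533981) had exactly 1 peak in every library, in a region inside the gene 303 bp past its start site (71529666 to 71529830). The vehicle peaks had −log10 q values of 3.07, 4.58 and 7.78 and the estradiol peaks 4.55, 7.20 and 9.82. Within each group replicate 3 was highest, and the groups overlapped. Its neighbour Dlx2 (71543408 to 71546754) had the most peaks of the 10 genes, 0, 3 and 5 in the vehicle and 2, 3 and 5 in the estradiol libraries. Of its 7 regions, 5 lay 52.2 to 89.9 kb beyond the gene, on the side of its start. The 2 most widely shared were at 66.1 kb (71612855 to 71612926) and 89.9 kb (71636698 to 71636845), each in vehicle replicates 2 and 3 and all estradiol libraries, on 4 to 10 and on 6 to 8 fragments. No peak of either gene was found between Dlx1 and Dlx2.

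Among the transmitter genes, Slc32a1 (chromosome 2, 158607260 to 158615747) had 0, 2 and 3 peaks in the vehicle and 2, 0 and 0 in the estradiol libraries. In the promoter region shown above, vehicle replicates 2 and 3 reached −log10 q values of 3.35 and 4.35 and estradiol replicate 1 reached 2.02. The region also overlaps the span of the non-coding gene Gm14204, so the peak cannot be given to Slc32a1 or Gm14204 alone. A region inside the gene, 2.97 kb past the start site (158613700 to 158613765), was held by vehicle replicates 2 and 3 (−log10 q 2.67 and 9.39) and by 0 estradiol libraries. It was the 1 member region in at least 2 vehicle and 0 estradiol libraries, a pattern of 2.60% of all regions, while 3 member regions had the reverse pattern, beside 3.71% of all. Those 3 were at Meis2 (240.0 kb), Dlx6 (64.1 kb) and Six3 (192 bp past the start).

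Gad1 (chromosome 2, 70561303 to 70602014) had 0, 2 and 2 peaks in the vehicle and 0, 1 and 1 in the estradiol libraries. Its most shared region lay inside the gene (70592546 to 70592660), in vehicle replicates 2 and 3 and estradiol replicate 2, on 5 to 6 fragments. The highest Gad1 peak was one of estradiol replicate 3, 72 bp beyond the lower end of the span, with −log10 q of 6.70. It lay inside the non-coding gene Gad1os. Gad2 (chromosome 2, 22621015 to 22693877) had a single region, 28.1 kb beyond the gene (22721929 to 22722101), which was found in 5 libraries. The vehicle peaks there had −log10 q values of 2.02, 5.71 and 12.5, those of estradiol replicates 2 and 3 had 3.71 and 16.8, and estradiol replicate 1 had none. Replicate 3 was the highest in each group.

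**Figure D3:**
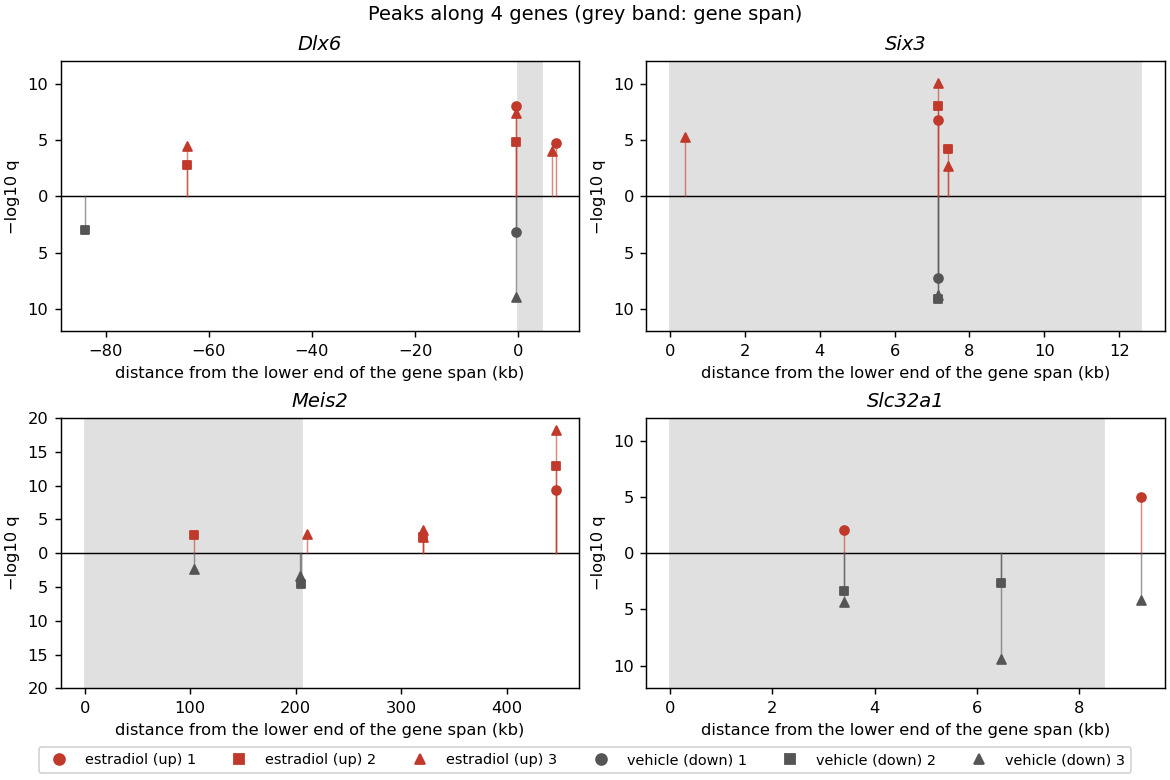
Peaks along Dlx6, Six3, Meis2 and Slc32a1: the x axis is the distance in kb from the lower-coordinate end of the gene span (grey band), the y axis the −log10 q, drawn upward for estradiol and downward for vehicle libraries, with 1 point for the highest peak of a library in a region. At Meis2 the 3 vehicle peaks lie inside the span and 7 of 8 estradiol peaks outside it, and at Six3 the promoter region carries points of all 6 libraries.

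Lhx6 (chromosome 2, 36081950 to 36105992) had no peak in any library, as had 37.9% of all protein-coding genes. Its territory, the gene span plus the flanks nearest to it up to the limit, was 30.2 kb, against 45.8 kb for the median gene. Within 250 kb of Lhx6 there were 31 peaks, and all 31 were nearest to other genes. The largest territory was that of Meis2 with 498 kb, above 97.0% of genes, and the smallest that of Dlx1 with 12.0 kb. The 10 genes had a median of 7 peaks over the 6 libraries and all genes 2, with no adjustment for territory. Of the 34 member regions 12 overlapped a gene span, counting those that met only its edge. A further 5 lay outside it within 1 kb and 17 farther away. Regions found in 1 library made up 15 of the 34, beside 58.9% of all regions, 9 in an estradiol and 6 in a vehicle library.

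The member peaks were neither the highest nor the lowest of their lists. Their median −log10 q ranked at the 33.5, 51.7 and 47.5 percentile of the vehicle lists and at the 64.4, 39.9 and 57.1 percentile of the estradiol lists. Peaks whose middle was at most 1 kb from an end of any protein-coding gene span made up 25.0%, 7.69% and 27.8% of member peaks in the vehicle and 27.3%, 21.4% and 30.0% in the estradiol libraries, beside 32.7 to 49.7% of all peaks of a library. The member share was the lower one in each of the 6 libraries. This measure takes span ends and not start sites. The regions of Six3, Slc32a1 and Dlx1 centred 0.054, 0.0935 and 0.303 kb from a start site were not counted. Their centres lie 7.17, 3.40 and 1.635 kb above the lower span end. The lower share is therefore no measure of how near member peaks were to start sites.

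**Figure D4:**
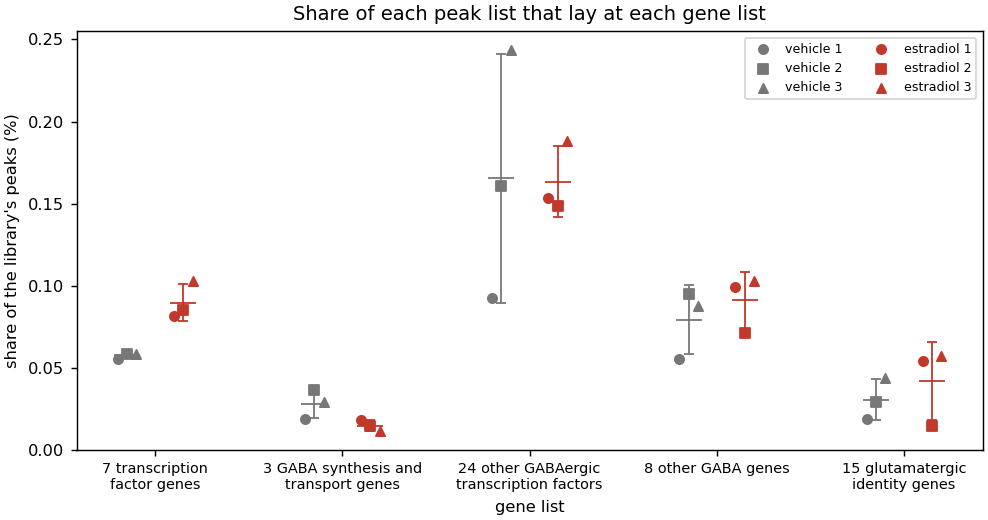
Share of each library's peaks (y axis, %) that lay at each gene list (x axis); points are libraries, with shape by replicate, and bars give the mean and SD of 3 libraries. The 7 transcription factor genes take 0.0553 to 0.0584% of vehicle and 0.0812 to 0.103% of estradiol lists, while the 24 other GABAergic transcription factor genes overlap between the groups.

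In the wider set of GABAergic genes the groups overlapped. For 24 other transcription factor genes of GABAergic neurons the shares were 0.0922%, 0.160% and 0.243% in the vehicle and 0.153%, 0.149% and 0.188% in the estradiol libraries, which overlapped (difference -0.00200 percentage points, exact permutation p = 1, adjusted p = 1). Of these 24 genes 22 had a peak, and 0 had more or fewer peaks in every estradiol than in every vehicle library. The 8 other genes of GABA metabolism and transport had shares of 0.0553%, 0.0948% and 0.0876% against 0.0993%, 0.0708% and 0.103% (difference 0.0116, exact permutation p = 0.5, adjusted p = 0.72). All 8 had a peak and none was higher or lower in every estradiol library. Whether the change at the 10 genes differed from that at these lists was not tested.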

How the data were processed

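ERα CUT&RUN was done in 6 libraries of limbic brain nuclei, 3 per group, and 1 peak list per library was used. Per the submitters' processing notes, cutadapt, Bowtie2, Picard, SAMtools, deepTools and MACS2 were used with the mm10 build; versions, and whether a control library was used, are not given in the sources used here. The deposited lists give each peak an integer score (10 times the −log10 q, rounded down), a fold enrichment, and −log10 p and −log10 q values, with a q-value of 0.01 in the peak names. These values are the authors' and were compared as ranks or descriptions, not tested. Fragment numbers are estimates: the whole number whose Poisson tail gives the deposited −log10 p, with a pseudocount of 1 in the fold, matched within 0.0002 for all peaks in 4 libraries, 99.995% in vehicle replicate 3 and 99.989% in estradiol replicate 3.

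Touching or overlapping peaks (1 bp) were merged into regions. Gene spans came from RefSeq (GRCm38.p6). Groups of library values were set against each other with exact permutation tests (two-sided, scipy 1.17.1), and p-values of the shares were adjusted over 6 lists by the Benjamini-Hochberg method. The members and lists were chosen with earlier results of these data known. All 10 genes are named, with every region in 3 or in at least 2 libraries of 1 group alone, those in at least 5 libraries and the most shared one of each gene; others were chosen after their values were seen. Assignment and merging were tested on simulated data. Settings tried were the distance limit, a stricter q, lists of equal length, and merging and cover rules. Left-out libraries, replicates 1 and 2 alone, replicate 3 alone and the replicate block were tried as well. No genome was used, so sequences of regions outside promoter windows are not shown.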

Additional observations from a re-analysis of the deposited data

How the results depend on the processing

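With gene spans alone the difference over the 10 genes turned to -0.667 peaks and -0.00607 percentage points, and without vehicle replicate 1 to -0.500 peaks; the share kept its direction in the other settings. Over left-out libraries the difference was -0.500 to 6.5 peaks and 0.0129 to 0.0234 percentage points. Genes with more peaks in every estradiol library numbered 1 in place of 2 with gene spans alone (Six3), at a −log10 q of at least 5 (Meis2), with lists of equal length (Meis2) and with regions counted in place of peaks (Dlx6), and 2 to 3 over left-out libraries. Genes with fewer numbered 0 to 1 over left-out libraries (Gad1 without vehicle replicate 1) and 2 in replicate 3 alone. The estradiol-only count at the 10 genes was 0 within 100 kb, within gene spans and with 50% cover, 3 when 2 of 3 libraries sufficed, 9 in replicate 3 alone, and 1 to 3 over left-out libraries (3 without estradiol replicate 1). The vehicle-only count was 1 when 2 of 3 libraries sufficed, 7 in replicate 3 alone, and 0 to 1 over left-out libraries, at Slc32a1 without vehicle replicate 1. Fewer libraries make both rules easier to meet.

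With the replicate block, in which libraries of the same number were compared, 3 genes had more peaks after estradiol in every pair, 3 regions were estradiol-only and 1 was vehicle-only in at least 2 pairs with no pair reversed, and the exact paired p was 0.25 for the number (3.33) and the share (0.0187), the smallest possible. The deviations of same-numbered libraries had correlations of -0.0293, 0.0213 and -0.0148, and those of vehicle replicate 1 with estradiol replicate 3 had 0.0404. These are correlations of deviations and not of the libraries themselves. With 3 libraries per group they cannot settle whether the numbers pair the libraries, and the main tests left them unpaired. Of 140 differences of single genes over these settings 126 moved by no more than the SD of replicates. This tally includes differences that could not move: Lhx6 was 0 throughout, and the replicate block leaves every mean difference unchanged. A change of sign within the SD also counted as no move, as at Dlx2 (0.667, and -0.667 without vehicle replicate 1). Summits of 4 to 28 fragments limit every count: a peak near the smallest number can be missed in another library.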

Other observations

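Among the 24 other GABAergic transcription factor genes, 1 had a region in 3 of 3 estradiol and 0 of 3 vehicle libraries, 1 of the 92 regions of that list, beside 0.737% of all regions. It was Arid5b, which encodes a DNA-binding protein of the ARID family, and the region lay inside the gene (chromosome 10, 68268544 to 68268745). Estradiol replicates 1, 2 and 3 reached −log10 q values of 3.31, 3.35 and 5.52 there on 5, 4 and 7 fragments, so it stood on fewer fragments than the Meis2 region in each library. Arid5b as a whole had 0, 3 and 3 peaks in the vehicle and 1, 1 and 4 in the estradiol libraries, which overlapped.

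The 15 identity genes of glutamatergic neurons, the excitatory class, held 1, 4 and 9 peaks in the vehicle and 6, 2 and 10 in the estradiol libraries. As shares of the lists these were 0.0184%, 0.0292% and 0.0438% against 0.0541%, 0.0142% and 0.0570% (exact permutation p = 0.6, adjusted p = 0.72), with 0 estradiol-only and 0 vehicle-only regions. They had a median of 1 peak per gene over the 6 libraries, against 7 for the 10 GABAergic genes and 5 for the 24 other GABAergic transcription factor genes. Peaks per gene were not adjusted for the territory of each gene, so these medians do not compare binding between the lists.

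Promoter windows with a peak in all 6 libraries, like that of Six3, held CCAAT or ATTGG in 67.0% of cases, beside 37.4% of all windows. The full estrogen response element was in 0 of those 2232 windows. It was in 0.0700% of all windows, so low a share that 0 says little. Of the 23 windows with that element 3 had a peak in any library, beside 24.5% of all windows. This is a description of letters in windows, chosen after the Six3 sequence was seen, and was not tested.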
